A study of Mus musculus with 6 samples.

Results

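The 10 genes described here encode resident chaperones, folding enzymes and cofactors of the endoplasmic reticulum (ER): Hspa5, Hsp90b1, Calr, Canx, Pdia3, Pdia4, Pdia6, Dnajb9, Hyou1 and Sdf2l1. They were chosen by gene symbol, and all 10 were found among the 13706 genes of the deposited expression table. Messenger RNA was measured in primary cultures of mouse dermal fibroblasts by QuantSeq, a method that sequences a tag at the 3′ end of polyadenylated transcripts. There were 6 libraries in 3 groups of 2. Control cells carried the alleles Yap1 fl/fl and Wwtr1 fl/fl and no Cre recombinase. Knockout (KO) cells had these floxed alleles together with R26-CAG-CreER, a tamoxifen-activated Cre expressed from the ROSA26 locus under the broadly active CAG promoter. KO + H-151 cells had the KO genotype and also received 1 µM H-151, an inhibitor of the innate immune adaptor STING. All 3 groups, controls included, received 1 µM 4-hydroxytamoxifen in their medium for 72 hr. Yap1 and Wwtr1 encode YAP and TAZ, the transcriptional coactivators restrained by the Hippo pathway. Loss of YAP and TAZ and the presence of active Cre cannot be told apart, because the control cells held no Cre. H-151 was given to KO cells only. No label ties the libraries of a group to separate animals or cultures, and the p-values therefore reflect no more than the spread among these 6 libraries.

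Proteins that enter the ER fold with the help of an ATP-driven chaperone cycle around BiP, the product of Hspa5, and a lectin cycle around calnexin and calreticulin, while protein disulfide isomerases form and rearrange their disulfide bonds. When unfolded proteins build up, the sensors IRE1, ATF6 and PERK start the unfolded protein response, in which ATF6 and the spliced form of XBP1 raise the transcription of most of these chaperone genes. Fibroblasts rely on this machinery because they secrete large amounts of collagen and other matrix proteins.

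ATF6 and XBP1 are known to act on chaperone genes through the ER stress response element, a CCAAT box bound by the factor NF-Y, a spacer of 9 bases and the half-site CCACG. The deposited data hold no binding measurements. The element was searched because it is known from chaperone genes, so its presence in these promoters is not independent of the choice of genes. RefSeq promoter windows of GRCm38.p6, from 250 bases before to 50 bases after the transcription start, were matched by symbol for 9 of the 10 genes, all but Hyou1. The element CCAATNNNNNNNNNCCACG was found on either strand in 5 of these 9 promoters. The same letters occurred in 0.119% of all 32851 promoter windows, and in 15 of the 10267 tested genes with a promoter (0.146%). Each stretch below holds 1 copy with 10 bases on either side, read 5′ to 3′ along the gene's strand. Capitals mark the pair of half-sites, which read CGTGG and ATTGG where the element lies on the opposite strand.
Hspa5: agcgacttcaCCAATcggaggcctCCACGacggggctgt
Hsp90b1 distal: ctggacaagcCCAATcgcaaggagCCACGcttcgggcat
Hsp90b1 proximal: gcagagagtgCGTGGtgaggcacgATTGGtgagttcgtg
Calr: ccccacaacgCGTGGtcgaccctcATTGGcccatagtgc
Canx: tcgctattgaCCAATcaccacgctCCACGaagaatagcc
Pdia6: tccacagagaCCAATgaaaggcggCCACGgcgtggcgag
The Hspa5 stretch lies at chr2:34772015-34772053 on the plus strand, and the copy within it spans bases 65 to 47 before the RefSeq start. The Hsp90b1 stretches lie at chr10:86705628-86705666 and chr10:86705523-86705561 on the minus strand, the Calr stretch at chr8:84847065-84847103 on the minus strand and the Canx stretch at chr11:50325790-50325828 on the minus strand. The Pdia6 stretch lies at chr12:17266481-17266519 on the plus strand. All of these stretches lie upstream of the respective RefSeq start. The Hspa5 stretch falls inside the longest GENCODE M21 gene model, which begins further upstream than the RefSeq start.

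The complete 250 bases before the start are given for Hspa5, which had the most reads of the 10 genes, and for Sdf2l1, which had the largest measured fall and no copy of these letters in its window. The Hspa5 stretch lies at chr2:34771840-34772089 on the plus strand and the Sdf2l1 stretch at chr16:17132384-17132633 on the minus strand. Capitals again mark the element.
Hspa5 upstream: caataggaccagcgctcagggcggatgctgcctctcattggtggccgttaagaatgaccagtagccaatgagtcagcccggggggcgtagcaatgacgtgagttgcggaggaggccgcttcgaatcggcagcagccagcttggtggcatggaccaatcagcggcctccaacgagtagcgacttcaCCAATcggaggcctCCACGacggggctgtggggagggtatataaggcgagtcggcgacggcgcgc
Sdf2l1 upstream: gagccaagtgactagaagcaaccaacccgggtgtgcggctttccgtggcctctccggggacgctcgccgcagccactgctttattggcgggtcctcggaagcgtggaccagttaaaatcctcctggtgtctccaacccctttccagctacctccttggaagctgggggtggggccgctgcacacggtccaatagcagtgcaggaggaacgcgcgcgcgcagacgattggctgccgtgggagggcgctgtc
Pdia3, Pdia4, Dnajb9 and Sdf2l1 had no copy of the complete element in the searched window. The shorter letters CCAAT, which the element contains, were found in all 9 promoters, in 37.4% of all promoter windows and in 42.9% of tested genes. The half-site CCACG was found in 8 of the 9, all but Pdia3, in 32.8% of all windows and in 51.9% of tested genes. A second arrangement, ATTGGNCCACG, was found in 0 of 9 promoters, in 0.0365% of all windows and in 0.0877% of tested genes. TGACGTG, the core of another element bound by XBP1, was found in Hspa5 alone of the 9, in 2.01% of all windows and in 3.25% of tested genes. All letters were searched on both strands. A match describes the letters only and is neither a measured binding site nor a cause of a change.

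Each library had between 12444986 and 15308100 reads in genes of the table, and the deposited values are CPM computed with an effective library size, called scaled CPM here. Wwtr1 was 216 ± 3.69 scaled CPM (SD, n = 2) in control cells, 4.91 ± 0.17 in KO cells and 3.54 ± 0.66 in KO + H-151 cells. Yap1 was 125 ± 4.14, 67.4 ± 1.32 and 43.9 ± 2.08 scaled CPM in the same order, and 3′ tags may lie outside the deleted part of either gene. Summed fibroblast markers (8 of 8 listed genes in the table) were at 26997 to 27440 scaled CPM in control and 31509 to 33279 in KO libraries. In KO + H-151 libraries the sum was 19509 to 21132. The sum includes collagen genes, and the single markers were mixed. Against control, 1 of the 8 was called lower and 3 higher in KO cells. With H-151 against KO, 4 were called lower and 4 higher. Of 13648 genes tested with limma, 1938 were lower and 2483 higher in KO than in control cells. Under total-count scaling the median change of all genes moved to -0.16 (log2) and the share of called genes that were higher from 56.2% to 29.9%. With that scaling 29.7% of all tested genes were called lower and 12.7% higher in KO than in control cells. These shares are the background for every count in KO cells under total-count scaling below. For KO + H-151 against KO the same scaling moved the median to 0.18 and the share of higher calls from 47.5% to 71.2%.

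All 10 chaperone genes were lower in KO than in control cells, against 14.2% of all tested genes called lower in this comparison, and 0 of 10 were called higher, against 18.2%. Their median log2 change was -0.71, from -1.24 (Sdf2l1) to -0.21 (Canx), and the median over all tested genes was -0.01. Both KO libraries lay below both control libraries for all 10 genes, as they did for 33.5% of all tested genes. In KO + H-151 cells all 10 genes were again called lower than in control cells, against a background of 11.4% called lower and 11.5% called higher. The median there was -0.74, from -1.08 to -0.19, with a median of 0.00 over all tested genes. Both KO + H-151 libraries lay below both control libraries for all 10 genes, as for 29.5% of all tested genes. These comparisons share their control libraries. Under total-count scaling the chaperone median was -0.87 in KO cells and -0.73 in KO + H-151 cells against control, and all 10 changes stayed negative. Canx was then no longer called in KO + H-151 cells (log2 -0.18, limma adjusted p = 0.0616). With that scaling 29.7% of all tested genes were called lower in KO cells and 10.9% in KO + H-151 cells. In bulk RNA, fewer cells that make a transcript and less of the transcript per cell cannot be told apart.

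Between KO + H-151 and KO cells 1 of the 10 genes, Hspa5, was called lower, against 21.4% of all tested genes, and 0 were called higher, against 19.4%. The median change was 0.01 with 5 genes of either sign, and the median over all tested genes was 0.02. At an unadjusted limma p under 0.05 there were 3 genes lower and 2 higher. The shares of all tested genes at that threshold are at least the adjusted 21.4% and 19.4%. On the recovered reads edgeR called 1 lower and 0 higher, beside 21.2% and 19.2% of all tested genes. DESeq2 also called 1 lower and 0 higher, beside 18.5% and 13.3%. Under total-count scaling 0 chaperone genes were called lower and 4 higher, beside 4770 of all 13648 tested genes (35%) called higher with that scaling. Quantile normalization also gave 0 lower and 4 higher, beside 3546 of all tested genes (26%), and only Canx and Pdia4 were among the 4 under both. The libraries of the KO and KO + H-151 groups did not overlap for 7 of the 10 genes, near the 69.2% of all tested genes. For Calr, Canx and Pdia3 they overlapped. The plot of library values shows the separation of the control libraries from the other 4 in each gene.

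**Figure D1:**
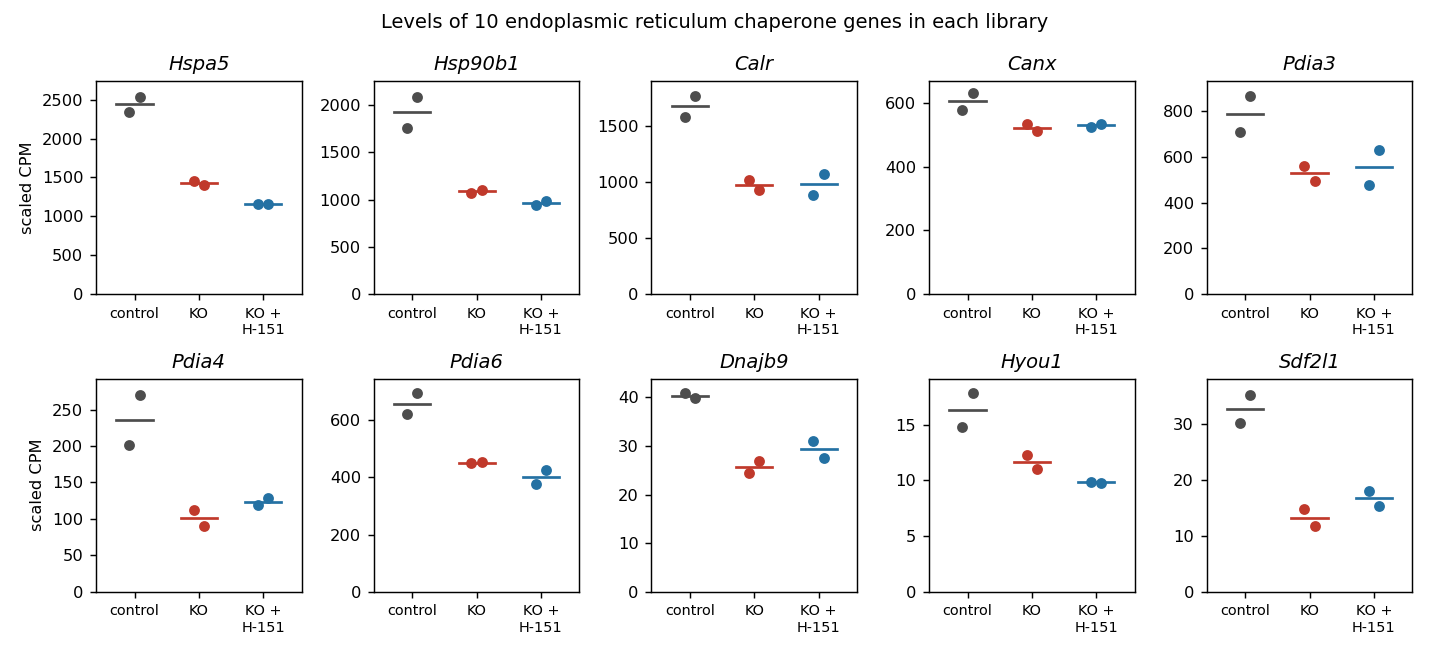
Level of each of the 10 chaperone genes in scaled CPM (vertical axes, each starting at 0) in the 6 libraries by group; points are libraries and horizontal lines group means. In every panel both control points lie above all 4 points of the KO and KO + H-151 groups, while the latter groups overlap for Calr, Canx and Pdia3.

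Hspa5 (ENSMUSG00000026864, chr2:34771970-34777547, plus strand, GENCODE M21 on GRCm38) encodes BiP, the HSP70 of the ER lumen, which holds unfolded chains and also keeps the stress sensors inactive. It was at 2339.6 and 2539.9 scaled CPM in the control libraries, 1447.5 and 1397 in KO and 1153 and 1155 in KO + H-151 libraries. The 3 groups formed separate steps, with KO + H-151 lowest. KO cells had 41.7% less than control cells, a log2 change of -0.78 ± 0.07 (SE, limma adjusted p = 2.07e-07). KO + H-151 cells had 52.7% less than control cells, a log2 change of -1.08 ± 0.07 (limma adjusted p = 2.26e-08). The further step from KO to KO + H-151 was -0.30 ± 0.07 (limma adjusted p = 0.00272). This last step depended on scaling: it was -0.06 (adjusted p = 0.494) with quantile normalization and -0.12 (adjusted p = 0.156) with total-count scaling. Without KO replicate 1 it was -0.28.

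Hsp90b1 (ENSMUSG00000020048, chr10:86690209-86705509, minus strand) encodes GRP94, the HSP90 of the ER, which finishes the folding of a narrower set of clients such as integrins and Toll-like receptors. Its values were 1761 and 2092.5 scaled CPM in control, 1073.5 and 1107 in KO and 945 and 986 in KO + H-151 libraries. The control libraries lay apart from the other 4, and both KO + H-151 libraries were below both KO libraries. The KO level was 43.4% below control (log2 -0.82 ± 0.08, limma adjusted p = 5.19e-07). With H-151 it was 49.9% below control (log2 -0.99 ± 0.08, limma adjusted p = 2.03e-07). The difference between KO + H-151 and KO, -0.18 ± 0.08, did not pass the threshold (limma adjusted p = 0.0920).

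Calr and Canx encode calreticulin and calnexin, a soluble and a membrane-bound lectin that bind glycoproteins with a trimmed glucose, and both proteins also bind calcium. Calr (ENSMUSG00000003814, chr8:84841850-84846934, minus strand) was at 1580.5 and 1763 scaled CPM in control, 1018 and 930.5 in KO and 883 and 1069 in KO + H-151 libraries. The 4 libraries of KO genotype, with or without H-151, formed a single range below the controls. The fall in KO cells was 41.7% (log2 -0.78 ± 0.09, limma adjusted p = 3.24e-06), and with H-151 it was 41.6% (log2 -0.78 ± 0.09, limma adjusted p = 9.06e-06). Between KO + H-151 and KO cells Calr did not pass (limma adjusted p = 0.986), but with quantile normalization it was called higher with H-151 (log2 0.30, adjusted p = 0.00902). Canx (ENSMUSG00000020368, chr11:50293961-50325673, minus strand) was at 579.8 and 631 scaled CPM in control, 534 and 512 in KO and 526 and 534 in KO + H-151 libraries. It moved least of the 10 genes, by 13.7% in KO cells (log2 -0.21 ± 0.07, limma adjusted p = 0.0214) and by 12.5% with H-151 (log2 -0.19 ± 0.07, limma adjusted p = 0.0469). Both Canx calls were fragile. For KO cells the log2 change was -0.15 without control replicate 2, -0.24 without KO replicate 1 and -0.18 without KO replicate 2. The KO call did not survive a variance prior without a trend (adjusted p = 0.134). For KO + H-151 cells the change was -0.13 without control replicate 2, -0.18 without KO + H-151 replicate 1 and -0.20 without KO + H-151 replicate 2. The KO + H-151 call was missed with the replicate block (adjusted p = 0.0685). It was also missed with quantile normalization (0.216), total-count scaling (0.0616), a fit of only the groups compared (0.0984), no variance trend (0.206), edgeR (0.0505) and DESeq2 (0.0570). In every one of these fits the Canx change against control stayed negative.

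The protein disulfide isomerases carry thioredoxin-like domains. Pdia3 (ENSMUSG00000027248, chr2:121413775-121438687, plus strand) encodes ERp57, the partner of calnexin and calreticulin on glycoproteins. Its values were 711 and 869 scaled CPM in control, 561 and 496 in KO and 479 and 629.5 in KO + H-151 libraries. The KO + H-151 libraries spanned more than the range of the KO libraries, and all 4 lay below the controls. The KO level was 33.0% below control (log2 -0.57 ± 0.11, limma adjusted p = 7.48e-04). With H-151 it was 29.8% below (log2 -0.52 ± 0.11, limma adjusted p = 0.00281), and this call was lost without control replicate 2 (log2 -0.37, adjusted p = 0.0689), with no variance trend (adjusted p = 0.0926) and with DESeq2 (adjusted p = 0.0695). Between KO + H-151 and KO cells Pdia3 did not pass (log2 0.06 ± 0.11, limma adjusted p = 0.716). It was called higher with H-151 under quantile normalization (log2 0.34, adjusted p = 0.0278) and without KO + H-151 replicate 1 (log2 0.25, adjusted p = 0.0328).

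Pdia4 (ENSMUSG00000025823, chr6:47796141-47813430, minus strand) encodes ERp72, an isomerase found in complexes with BiP and GRP94. It was at 202 and 269 scaled CPM in control, 112 and 90.8 in KO and 119 and 128 in KO + H-151 libraries. The control values were the most spread of the groups, yet even the lower one exceeded all 4 others. Pdia4 fell by 56.9% in KO cells (log2 -1.20 ± 0.11, limma adjusted p = 3.81e-07) and was 47.6% below control with H-151 (log2 -0.91 ± 0.11, limma adjusted p = 2.39e-05). The value with H-151 was above that in KO cells by 0.29 ± 0.11 (log2), just short of the threshold (limma adjusted p = 0.0571). That difference passed without control replicate 1 (adjusted p = 0.0236), control replicate 2 (0.0241), KO replicate 1 (0.0411) or KO + H-151 replicate 1 (0.0276), under 3 other scalings and in a fit of only the groups compared (0.0258).

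Pdia6 (ENSMUSG00000020571, chr12:17266545-17284770, plus strand) encodes P5, an isomerase that works with BiP. The control libraries gave 620.7 and 694 scaled CPM, the KO libraries 450.2 and 453 and the KO + H-151 libraries 376 and 428. The order was control, KO and then KO + H-151, with no overlap. Pdia6 was 31.3% below control in KO cells (log2 -0.54 ± 0.07, limma adjusted p = 2.94e-05) and 38.8% below with H-151 (log2 -0.71 ± 0.07, limma adjusted p = 4.11e-06). KO + H-151 and KO differed by -0.17 ± 0.07 (limma adjusted p = 0.0818), which passed without KO + H-151 replicate 2 (log2 -0.26, adjusted p = 0.00763).

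The remaining 3 genes encode cofactors of BiP and had far fewer reads, from 129 to 575 per library. Dnajb9 (ENSMUSG00000014905, chr12:44205559-44210326, minus strand) encodes ERdj4, a J-domain protein that recruits BiP, among others to IRE1. It was at 40.9 and 39.9 scaled CPM in control, 24.4 and 26.9 in KO and 31.1 and 27.6 in KO + H-151 libraries. The H-151 libraries lay between the other groups. Dnajb9 was 36.5% below control in KO cells (log2 -0.64 ± 0.10, limma adjusted p = 1.31e-04) and 27.3% below with H-151 (log2 -0.45 ± 0.10, limma adjusted p = 0.00425). The difference of 0.19 ± 0.10 between KO + H-151 and KO did not pass (limma adjusted p = 0.158).

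Sdf2l1 (ENSMUSG00000022769, chr16:17130138-17132383, minus strand) encodes a small protein that joins BiP and its J-domain cochaperones. It was at 30.3 and 35.2 scaled CPM in control, 14.8 and 11.8 in KO and 18.0 and 15.4 in KO + H-151 libraries. As for Dnajb9, the treated KO libraries lay between the other groups. The KO level was 59.4% below control (log2 -1.24 ± 0.14, limma adjusted p = 2.02e-06) and the KO + H-151 level 48.8% below (log2 -0.93 ± 0.14, limma adjusted p = 1.17e-04). KO + H-151 exceeded KO by 0.32 ± 0.14 (log2), which missed the threshold (limma adjusted p = 0.0753) but passed without KO replicate 1 (log2 0.47, adjusted p = 0.0455) or KO + H-151 replicate 2 (log2 0.42, adjusted p = 0.0351).

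Hyou1 (ENSMUSG00000032115, chr9:44379490-44392369, plus strand) encodes GRP170, a large HSP70-like protein that exchanges the nucleotide on BiP. It was at 14.7 and 17.8 scaled CPM in control, 12.3 and 10.99 in KO and 9.87 and 9.76 in KO + H-151 libraries. The order of the groups was that of Hspa5 and Pdia6. Hyou1 was 28.5% below control in KO cells (log2 -0.45 ± 0.14, limma adjusted p = 0.0248) and 39.7% below with H-151 (log2 -0.67 ± 0.14, limma adjusted p = 0.00270). The KO change was -0.32 without control replicate 2, -0.52 without KO replicate 1 and -0.37 without KO replicate 2. The KO call was missed with DESeq2 (log2 -0.48, adjusted p = 0.0812). Without control replicate 2 the KO + H-151 change against control was -0.54. The log2 scale with 1 added understates the change of a gene at this level.

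**Figure D2:**
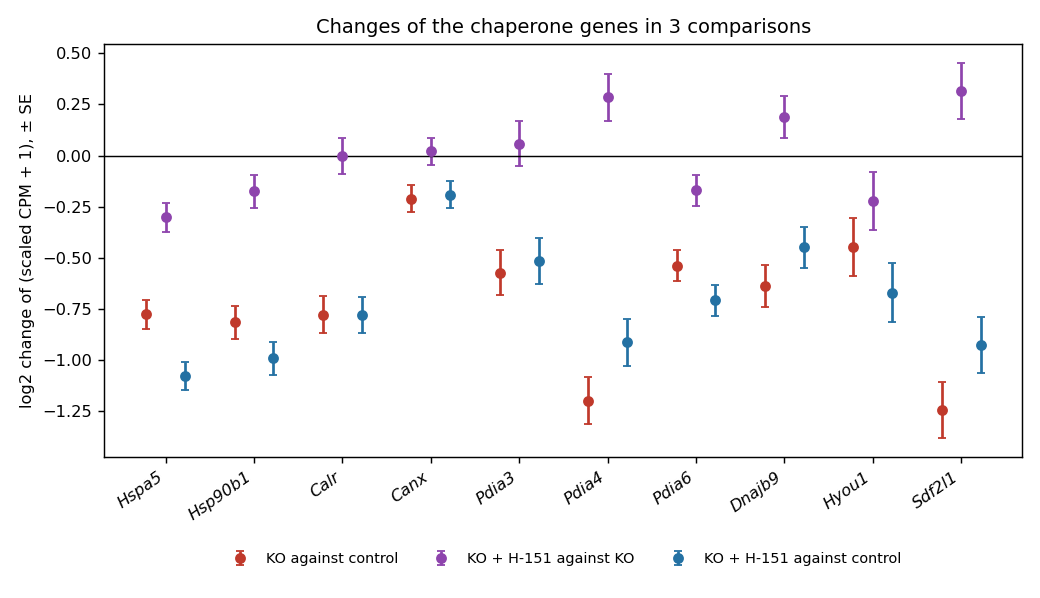
Log2 change of scaled CPM + 1 (vertical axis) of each chaperone gene (horizontal axis) in the 3 comparisons, with bars of 1 SE from the limma fit. The changes of KO and KO + H-151 against control all lie below 0, from -1.24 (Sdf2l1) to -0.19 (Canx), while those of KO + H-151 against KO lie on both sides of 0, from -0.30 (Hspa5) to 0.32 (Sdf2l1).

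By library values with and without H-151, Hspa5, Hsp90b1, Pdia6 and Hyou1 had both KO + H-151 libraries below both KO libraries, while Pdia4, Dnajb9 and Sdf2l1 had them above. Such separation in 7 of 10 genes is near the 69.2% of all tested genes. Only the Hspa5 step passed the threshold with the values as deposited. Under total-count scaling the changes of Hsp90b1 and Pdia6 came to 0.0028 and 0.0077, while Pdia4 (log2 0.46), Dnajb9 (0.36), Sdf2l1 (0.48) and Canx (0.20) passed as higher with H-151. The median of all tested genes was 0.18 with that scaling, and 35% of them passed as higher. Within the control group, replicate 2 was above replicate 1 for 9 of the 10 genes, all but Dnajb9. Within KO, replicate 2 was the higher one for 3 genes, and within KO + H-151 for 7. Without control replicate 2 the chaperone median against control was -0.674 in KO and -0.665 in KO + H-151 cells. Leaving out KO replicate 1 or KO replicate 2 gave -0.728 or -0.710 in KO cells against control.

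Summed over the 10 genes, chaperone tags made up 0.819% and 0.923% of the reads in the control libraries, 0.484% and 0.466% in KO and 0.475% and 0.521% in KO + H-151 libraries. By share of reads the control libraries were thus apart from the other 4, which overlapped. In scaled CPM the sums were 7880.4 and 8951.5 in control, 5247.5 and 5035.7 in KO and 4539.8 and 4982.7 in KO + H-151 libraries. In that unit both KO + H-151 libraries lay below both KO libraries. The 20 secreted matrix genes, the clients that a fibroblast sends through the ER in bulk, took 5.09% and 5.11% of reads in control, 5.11% and 5.46% in KO and 4.00% and 3.86% in KO + H-151 libraries. Per 100 reads of matrix genes there were 16.1 and 18.1 chaperone reads in control, 9.49 and 8.53 in KO and 11.9 and 13.5 in KO + H-151 libraries. This ratio separated all 3 groups, with KO lowest, and it is independent of how the libraries were scaled.

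**Figure D3:**
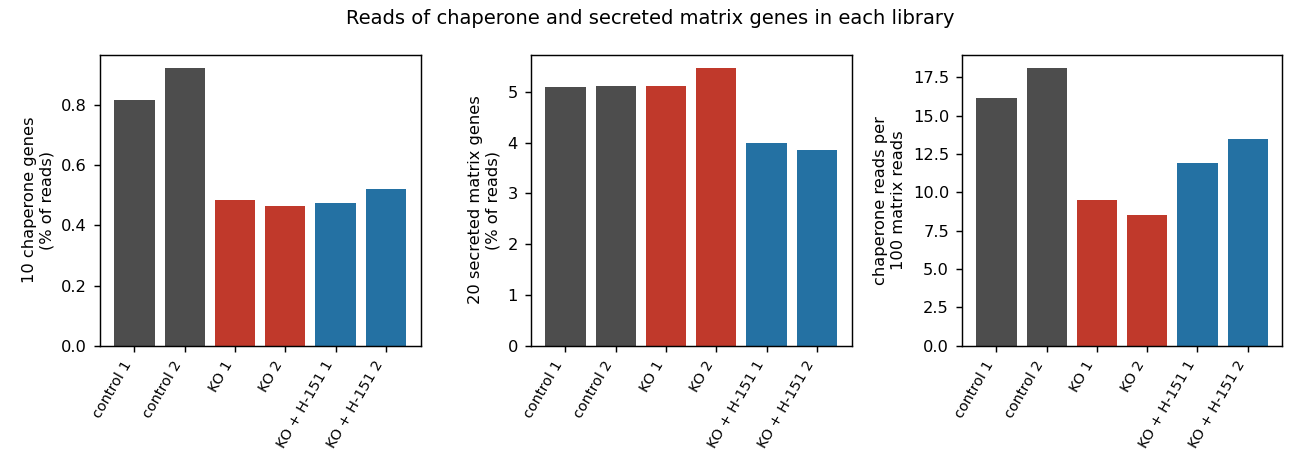
Share of reads (%) in the 10 chaperone genes (left) and in 20 secreted matrix genes (middle), and chaperone reads per 100 matrix reads (right), with 1 bar per library. The chaperone share was 0.819 to 0.923% in control and 0.466 to 0.521% in the other 4 libraries, and the ratio was lowest in KO (8.53 and 9.49).

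The transcription factors and sensors above these genes were a list of 12 tested genes of the ATF6 and IRE1 arms. Of these 2 fell and 0 rose in KO cells (median log2 -0.02), beside 14.2% and 18.2% of all tested genes. Under total-count scaling 4 fell and 0 rose, beside 29.7% and 12.7%. Leaving out a control or KO library gave medians from -0.06 to 0.04. Xbp1 (ENSMUSG00000020484, chr11:5520659-5525893, plus strand), whose transcript is spliced by IRE1 to yield the active factor and is itself a target of ATF6, was at 131 and 146 scaled CPM in control, 87.2 and 81.7 in KO and 99.0 and 101 in KO + H-151 libraries. Its 3 groups did not overlap. Xbp1 fell in KO cells, with a log2 change of -0.70 ± 0.08 (limma adjusted p = 1.55e-06) and rose with H-151 by 0.24 ± 0.08 (limma adjusted p = 0.0165). Its level with H-151 was still lower than in control cells by a log2 change of -0.46 ± 0.08 (limma adjusted p = 3.03e-04). The rise with H-151 was lost without KO replicate 2 (log2 0.20, adjusted p = 0.152), with no variance trend (adjusted p = 0.0945) and with DESeq2 (adjusted p = 0.0579). 3′ tags do not separate the spliced from the unspliced Xbp1 transcript. Atf6, the factor released from the membrane by proteolysis, was 53.8 ± 5.67 scaled CPM in control and 61.2 ± 3.45 in KO cells (log2 0.19 ± 0.09, limma adjusted p = 0.129). Ern1, which encodes the sensor IRE1, was 14.5 ± 2.30 in control and 12.5 ± 0.01 in KO cells (log2 -0.19 ± 0.14, limma adjusted p = 0.335).

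The PERK arm, which lowers translation and induces ATF4 and its targets, moved in both directions in KO cells. Of its 10 tested genes 3 fell and 5 rose (median log2 0.20), beside 14.2% and 18.2% of all tested genes. Under total-count scaling 4 fell and 4 rose, beside 29.7% and 12.7%. Its median lay between 0.192 and 0.215 with a control or KO library left out. Eif2ak3, the gene of PERK itself, was at 17.8 and 21.2 scaled CPM in control, 12.1 and 12.9 in KO and 17.8 and 18.5 in KO + H-151 libraries. It was lower in KO cells (log2 -0.60 ± 0.13, limma adjusted p = 0.00178) and rose with H-151 (0.51 ± 0.13, limma adjusted p = 0.00488) to the range of the controls. Atf3, a stress-induced transcription factor with several inputs beside PERK, went from 14.2 ± 0.83 scaled CPM in control to 68.4 ± 0.09 in KO and 23.7 ± 2.29 in KO + H-151 cells. It rose in KO (log2 2.19 ± 0.11, limma adjusted p = 5.56e-11) and fell with H-151 (-1.49 ± 0.11, limma adjusted p = 7.35e-09). Ppp1r15b, a subunit of the phosphatase that reverses the action of PERK, also rose in KO (log2 0.61 ± 0.07) and fell with H-151 (-0.81 ± 0.07). Atf4, with 462 ± 4.36 scaled CPM in control and 493 ± 6.24 in KO cells, did not pass (log2 0.09 ± 0.06, limma adjusted p = 0.293), and its sign turned to -0.10 with quantile normalization and -0.07 with total-count scaling.

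Of 10 small stress-induced ER proteins 5 fell and 0 rose in KO cells (median log2 -0.30), beside 14.2% and 18.2% of all tested genes. Under total-count and quantile scaling 6 of 10 fell, beside 29.7% and 21.9% of all tested genes. The median ranged from -0.34 to -0.21 with a control or KO library left out. Manf, a secreted survival factor that binds BiP, was at 217 and 267 scaled CPM in control, 148 and 140 in KO and 120 and 140 in KO + H-151 libraries. Creld2, an ER protein with isomerase activity, was at 36.7 and 50.2 in control, 21.0 and 19.5 in KO and 19.6 and 25.8 in KO + H-151 libraries. Nucb2, a calcium-binding secretory protein, was at 145 and 161, 104 and 101, and 89.4 and 94.4 scaled CPM in the same order. In each of the 3 genes both control libraries lay above the other 4. The log2 changes in KO cells were -0.74 ± 0.09 for Manf, -1.05 ± 0.14 for Creld2 and -0.58 ± 0.07 for Nucb2. With H-151 the changes against control were -0.89, -0.90 and -0.73. Between KO and KO + H-151, 0 of 10 genes of the list fell and 1 rose (median -0.06), beside 21.4% and 19.4% of all tested genes. With quantile normalization 0 fell and 2 rose (median 0.10), beside 16% and 26%. Without KO + H-151 replicate 2 the median was -0.11.

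ER-associated degradation, which returns misfolded proteins to the cytosol for destruction, had 17 tested genes. In KO cells 5 fell and 3 rose (median log2 -0.06), beside 14.2% and 18.2% of all tested genes. Under total-count scaling 10 fell and 2 rose, beside 29.7% and 12.7%. The median ranged from -0.09 to -0.03 with a control or KO library left out. The smallest p belonged to Rnf139, a ubiquitin ligase of the ER membrane, at 25.0 and 23.4 scaled CPM in control, 79.8 and 91.0 in KO and 25.2 and 26.1 in KO + H-151 libraries. It rose in KO cells (log2 1.77 ± 0.10, limma adjusted p = 2.80e-10) and fell with H-151 (-1.69 ± 0.10, limma adjusted p = 4.74e-10). Herpud1, a membrane scaffold of the degradation complex, was at 120 and 129 scaled CPM in control, 76.1 and 72.7 in KO and 78.9 and 83.2 in KO + H-151 libraries (KO against control log2 -0.73 ± 0.07, limma adjusted p = 8.73e-07). Syvn1, the ubiquitin ligase of the same complex, was at 63.7 and 63.6 in control, 86.3 and 96.0 in KO and 45.7 and 46.0 in KO + H-151 libraries. It rose in KO cells (log2 0.51 ± 0.08, limma adjusted p = 1.08e-04) and fell with H-151 (-0.97 ± 0.08, limma adjusted p = 5.43e-08). Herpud1 and Syvn1 thus moved in opposite directions in KO cells, and both were below control with H-151.

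Among the other cofactors of BiP, 2 of 10 tested J-domain and exchange factors fell and 1 rose in KO cells (median log2 -0.09). Of all tested genes 14.2% were called lower and 18.2% higher. Under total-count scaling 6 fell, beside 29.7% of all tested genes. Leaving out a control or KO library gave medians from -0.10 to -0.05. Dnajc3, a J-domain protein of the ER lumen, was at 368 and 382 scaled CPM in control, 317 and 292 in KO and 277 and 291 in KO + H-151 libraries. Its change in KO cells was -0.30 ± 0.07 (log2, limma adjusted p = 0.00220), and the call was lost without KO replicate 2 (log2 -0.24, adjusted p = 0.0660) and with no variance trend (adjusted p = 0.0533). Sec63, the J-domain protein that couples BiP to the translocon, went the other way: 255 and 257 scaled CPM in control, 399.7 and 367 in KO, 175 and 180.3 in KO + H-151 libraries. It rose in KO cells (log2 0.58 ± 0.07, limma adjusted p = 3.01e-06) and fell below control with H-151 (log2 -0.53 ± 0.07 against control, limma adjusted p = 2.31e-05).

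Other oxidoreductases of the ER showed no common direction in KO cells, with 2 of 15 lower and 2 higher (median log2 0.03). The shares of all tested genes were 14.2% and 18.2%. Under total-count scaling 5 were lower and 0 higher, beside 29.7% and 12.7%. The median ranged from 0.0013 to 0.0833 with a control or KO library left out. P4hb, the founding protein disulfide isomerase and a subunit of collagen prolyl hydroxylase, was 694 ± 20.4 scaled CPM in control cells, 583 ± 24.1 in KO cells and 517 ± 6.98 with H-151. Its log2 change in KO cells was -0.25 ± 0.06 (limma adjusted p = 0.00658), which did not pass without control replicate 2 (adjusted p = 0.0730), without KO replicate 1 (adjusted p = 0.110) or with no variance trend (adjusted p = 0.0778). Glycan-trimming enzymes and lectins had 1 of 14 lower and 1 higher (median 0.03), or 4 lower and 0 higher under total-count scaling. Their median ranged from 0.0033 to 0.0543 with a control or KO library left out. The 1 lower gene was Lman1, a cargo receptor for glycoproteins (log2 -0.29 ± 0.06, limma adjusted p = 0.00196).

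Further steps of the secretory route were counted in KO + H-151 cells first. Against control, 15 of 26 genes of the translocon, signal peptidase and oligosaccharyltransferase fell and 0 rose (median log2 -0.23), and 12 of 21 prolyl isomerases and collagen-modifying enzymes fell and 2 rose (median -0.29). Of 16 genes of ER exit and retrieval 8 fell and 0 rose (median -0.26). The shares of all tested genes in this comparison were 11.4% called lower and 11.5% higher. The 15 translocon calls became 9 with quantile normalization and 7 with no variance trend, beside 11.2% and 6.87% of all tested genes. Without control replicate 2 the median was -0.25 for the translocon list and -0.24 for the collagen list. The 2 higher calls of the collagen list became 0 with median scaling and with no variance trend, beside 10.1% and 7.85% of all tested genes. In KO against control the same 3 lists gave 3 lower and 2 higher, 2 lower and 4 higher, and 2 lower and 1 higher. There 14.2% of all tested genes were called lower and 18.2% higher. The KO counts depended on scaling: under total-count scaling they were 18 lower and 1 higher, 6 lower and 2 higher, and 10 lower and 1 higher. Of all tested genes 29.7% were then called lower and 12.7% higher. Leaving out a control or KO library gave KO medians from -0.11 to -0.07 for the translocon list. The medians were 0.05 to 0.09 for the collagen list and -0.14 to -0.05 for ER exit. Serpinh1, the collagen chaperone HSP47, was at 914 and 1069 scaled CPM in control, 850.1 and 956 in KO and 684 and 659.6 in KO + H-151 libraries. It did not pass in KO cells (log2 -0.13 ± 0.08, limma adjusted p = 0.230) and fell against control with H-151 (-0.56 ± 0.08, limma adjusted p = 1.02e-04). Under quantile normalization and total-count scaling Serpinh1 also passed in KO cells (log2 -0.35 and -0.30).

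Chaperones outside the ER were counted in the same way. Of 29 tested cytosolic chaperones 3 fell and 5 rose in KO cells (median log2 0.03). Among 8 mitochondrial chaperones and proteases 0 fell and 0 rose (median 0.06). The shares of all tested genes were 14.2% and 18.2%. Under total-count scaling the counts were 11 and 4, and 3 and 0, beside 29.7% and 12.7% of all tested genes. The mitochondrial median ranged from -0.0385 to 0.1086 with a control or KO library left out. Hsp90ab1, the cytosolic relative of Hsp90b1, was 2508 ± 34.5 scaled CPM in control cells, 2467 ± 83.8 in KO cells and 2649 ± 66.5 with H-151 (KO against control log2 -0.02 ± 0.07, limma adjusted p = 0.837). Under total-count scaling Hsp90ab1 was called lower in KO cells (log2 -0.19, limma adjusted p = 0.0493), as were 29.7% of all tested genes. Hsph1, a cytosolic relative of Hyou1, was at 92.1 and 103 in control, 58.7 and 57.7 in KO and 73.2 and 70.5 in KO + H-151 libraries and fell in KO cells (log2 -0.73 ± 0.08). Dnajb1, a cytosolic J-domain protein induced by heat shock, rose in KO cells from 47.7 ± 0.66 to 83.4 ± 2.78 scaled CPM (log2 0.79 ± 0.08) and was 46.5 ± 1.68 with H-151.

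**Figure D4:**
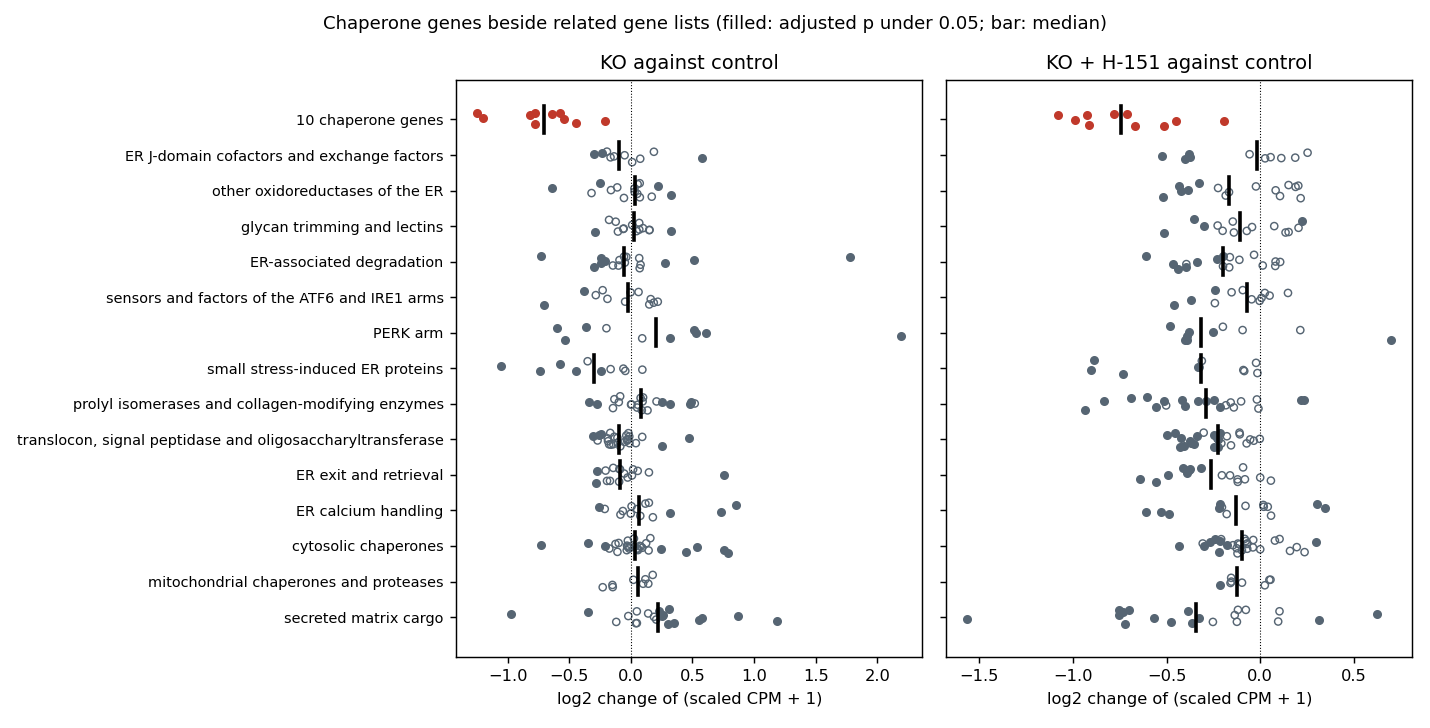
Log2 changes (horizontal axes) of the 10 chaperone genes and of 14 related gene lists (rows) in KO (left) and KO + H-151 (right) against control; points are genes, filled where the adjusted p is under 0.05, and bars are medians. The chaperone medians were -0.71 and -0.74, and those of the 14 lists lay between -0.30 and 0.22 in KO and between -0.34 and -0.02 in KO + H-151 cells.

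The secreted matrix genes themselves were higher in KO cells for 10 of 20 tested genes and lower for 2 (median log2 0.22). Of all tested genes 18.2% were called higher and 14.2% lower. The split was 8 and 2 with median scaling, beside 15.7% and 18.5%. It was 4 and 4 with total-count scaling (12.7% and 29.7%) and 4 and 6 with quantile normalization (14% and 21.9%). Leaving out a control or KO library gave medians from 0.16 to 0.27. Eln, the gene of elastin, was at 52.6 and 48.1 scaled CPM in control, 108 and 124 in KO and 18.1 and 14.8 in KO + H-151 libraries. It rose in KO cells (log2 1.19 ± 0.10, limma adjusted p = 1.49e-07) and fell with H-151 (-2.75 ± 0.10, limma adjusted p = 2.36e-12). Thbs1, the gene of thrombospondin-1 and a known YAP target, fell in KO cells (log2 -0.97 ± 0.09, limma adjusted p = 3.74e-07). With H-151, 15 of 20 matrix genes fell against KO and 3 rose (median -0.52), beside 21.4% of all tested genes called lower and 19.4% higher. The split was 12 lower and 4 higher with total-count scaling (median -0.34), beside 14.1% and 35% of all tested genes. It was 10 and 4 with quantile normalization (median -0.22), beside 16% and 26%. The median was -0.46 without KO replicate 2 and -0.58 without KO replicate 1. The chaperone genes had 1 call in that comparison with the values as deposited, and their calls also depended on scaling, as given above.

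The promoters of 10 other tested genes held the complete stress element. Gm6566 is left out of the counts, because it reached the filter only through the KO libraries. Of the other 9, 2 fell (Creld2 and Dnajc3) and 4 rose (Acacb, Pan2, Spats2l and Syvn1) in KO cells, with a median log2 change of -0.05. The shares of all tested genes were 14.2% and 18.2%. Between KO and KO + H-151, 4 of the 9 fell and 0 rose (median -0.37), beside 21.4% and 19.4% of all tested genes. These 9 genes were listed after the values were seen. The 5 chaperone genes with the element had log2 changes of -0.82 to -0.21 in KO cells. The chaperone genes without it (Pdia3, Pdia4, Dnajb9 and Sdf2l1) had changes of -1.24 to -0.57.

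Among 9020 genes with a mean of at least 10 scaled CPM, profiles over the 6 libraries were ranked by Euclidean distance from the mean chaperone profile, on the log2 scale after centring each gene. The nearest was Slc2a1, the glucose transporter GLUT1, with a distance of 0.139. Slc2a1 was at 91.5 and 94.8 scaled CPM in control, 62.6 and 56.2 in KO and 57.6 and 58.2 in KO + H-151 libraries. Rad18, Herpud1, 2900026A02Rik, Arhgap29, Rras2, Cdr2, Nucb2, Pcsk6 and Pgm3 followed in this order, with distances up to 0.192. Manf was at rank 15, Xbp1 at rank 30 and Creld2 at rank 116. Of the first 100 genes, 8 stood in a related list, which hold 216 of the 9020 ranked genes. Of the members themselves, Calr lay nearest the mean profile (0.166) and Canx (0.606) and Sdf2l1 (0.581) farthest. The 5 genes ranked first outside the set lay nearer to the mean profile than Calr did.

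Markers of other cell types moved with these groups. Summed macrophage markers (10 of 10 in the table) were at 1145 to 1366 scaled CPM in control, 1433 to 1451 in KO and 2975 to 3691 in KO + H-151 libraries, and all 10 rose with H-151 against KO. Adipocyte markers (6 of 6 in the table) were at 1321 to 1556, 1174 to 1355 and 3120 to 4232 in the same order, and all 6 rose with H-151. The 6 melanocyte and Schwann cell markers in the table summed to 38.3 to 46.1 in control and 117 to 133 in KO libraries. In KO + H-151 libraries they summed to 25.5 to 28.1. Their directions were mixed, with 2 lower and 3 higher in KO against control. With H-151 against KO 2 were lower and 2 higher. Endothelial markers (6 of 6) summed to at most 21.4 scaled CPM in any library, the 1 of 6 keratinocyte markers in the table to at most 10.97 and the 2 of 6 skeletal muscle markers to at most 24.0. The part of these cell types in the chaperone changes was not tested.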

How the data were processed

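The submitters' processing notes list STAR 2.5.3a, featureCounts, edgeR and mm10; annotation, strand setting and filters are not given in the sources used here. The authors deposited a scaled signal, CPM with an effective library size. Every value was a whole multiple of 1 read within 0.0006 scaled CPM, and whole reads were recovered for 100% of values. The plan named plain CPM and was kept for this unit. On log2(scaled CPM + 1), the 13648 genes reaching 1 scaled CPM in 2 or more libraries (58 did not; all 10 chaperone genes did) were fitted with 1 mean per group in limma 3.58.1 (R 4.3.3), with a variance trend. The fit had 3 residual degrees of freedom, or 15.7 after moderation. Benjamini-Hochberg adjustment ran over all tested genes, with a threshold of 0.05. The scripts were tested on simulated data.

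The chaperone genes and 14 related lists (224 genes) were chosen with earlier results of these data known. Named genes are the 10 chaperone genes, a selection from each list's 3 genes with the smallest p per comparison and the 1 with the highest mean, the 10 genes of nearest profile, the targeted genes, Xbp1, Atf6, Ern1 and Eif2ak3. Genes named for their promoters, and the ranks of Manf, Xbp1 and Creld2, were picked after their values were seen.

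Alternatives were pseudocounts of 0.25 and 4, no filter or a mean of at least 10 scaled CPM, median, quantile and total-count scaling, a fit of only the groups compared, no variance trend and a replicate block. Leaving out single libraries, edgeR 4.0.16 (quasi-likelihood) and DESeq2 1.42.0 on recovered reads were further ones. A lone library left in a group was assumed to vary like the other groups. Gene positions are from GENCODE M21 (GRCm38, the build of mm10), promoters from RefSeq (GRCm38.p6).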

Additional observations from a re-analysis of the deposited data

How the results depend on the processing

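All 10 chaperone genes kept a negative change in KO and in KO + H-151 against control under every alternative. When a library was left out in turn, their median ranged from -0.78 to -0.67 in KO cells against control. In KO + H-151 cells it ranged from -0.83 to -0.66. The calls against control lost under alternatives were those of Canx, Pdia3 and Hyou1. The count of genes lower in KO + H-151 than in KO was 1 in the analysis as reported (21.4% of all tested genes). It was 0 with quantile normalization (16%) and 0 with total-count scaling (14.1%). The count of genes higher was 0 as reported (19.4% of all tested genes) and 1 with median scaling (20.9%). It was 4 with quantile normalization (26%), 4 with total-count scaling (35%) and 1 in a fit of only the groups compared (18.6%). In that comparison the sign of several changes turned, of which the Calr value under quantile normalization was a call (adjusted p = 0.00902). Hsp90b1 went to 0.14 with quantile normalization and 0.0028 with total-count scaling. Calr went to 0.0245 with median scaling, 0.30 with quantile normalization, 0.18 with total-count scaling and 0.0032 with edgeR. Pdia6 went to 0.0822 with quantile normalization and 0.0077 with total-count scaling. With a library left out, the change ranged from -0.14 to 0.14 for Calr, from -0.0100 to 0.0503 for Canx and from -0.14 to 0.25 for Pdia3. In KO against control, Atf4 went to -0.10 with quantile normalization and -0.0716 with total-count scaling, and Hsp90ab1 ranged from -0.0589 to 0.0104 with a library left out. The cause of these turns was not tested. Between libraries of equal replicate number, deviations from the group means correlated at -0.07 (control and KO), 0.15 (control and KO + H-151) and -0.13 (KO and KO + H-151). With 2 libraries per group these values cannot tell whether equal numbers mark a shared animal, culture or day. With the replicate block 10 genes were lower in KO than in control cells, 9 in KO + H-151 than in control cells and 1 in KO + H-151 than in KO cells, and 0 were higher. In the same order 13.8%, 11% and 21% of all tested genes were called lower and 17.8%, 11.1% and 19% higher. A crossed replicate block, chosen after seeing the data, gave 10, 10 and 3 lower and 0, 0 and 2 higher in that order. Its shares of all tested genes were 17.8%, 14.7% and 24.3% lower and 21.2%, 14.5% and 22.4% higher. Hyou1 had the fewest reads of the 10 genes, 129 to 247 per library.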

Other observations

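The lectin chaperone calreticulin is also a main calcium store of the ER, and 14 other genes of ER calcium handling were counted. In KO against control cells 1 fell and 3 rose (median log2 0.06), beside 14.2% and 18.2% of all tested genes. Under total-count scaling 4 fell and 2 rose, beside 29.7% and 12.7%. The median ranged from 0.06 to 0.08 with a control or KO library left out. Between KO and KO + H-151 cells 9 fell and 2 rose (median -0.30), beside 21.4% and 19.4% of all tested genes. Under total-count scaling 5 fell and 3 rose, beside 14.1% and 35%. Without KO replicate 2 the median was -0.27. Atp2a2, the gene of the calcium pump SERCA2 that fills the ER, was at 206 and 221 scaled CPM in control, 349 and 362 in KO and 186 and 182 in KO + H-151 libraries. It rose in KO cells (log2 0.73 ± 0.07, limma adjusted p = 1.61e-07), in contrast to the 10 chaperone genes, and fell with H-151 (log2 -0.95 ± 0.07, limma adjusted p = 5.48e-09). Calu, the gene of the calcium-binding ER protein calumenin, was at 1190 and 1201 scaled CPM in control, 1109 and 1179 in KO and 869 and 707 in KO + H-151 libraries. It did not pass in KO cells (log2 -0.06 ± 0.08, limma adjusted p = 0.602) and fell with H-151 against KO (log2 -0.54 ± 0.08, limma adjusted p = 7.10e-05), a call missed with quantile normalization (log2 -0.21, adjusted p = 0.0582).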
